A study of Mus musculus with 12 samples.

Results

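The transcriptional response of control MC38CEA cells to IL1β and IFNγ was measured in 6 of the 12 libraries of a study of *Adam17*, which encodes a metalloproteinase that sheds cell surface proteins. The members were all control libraries, chosen by their labels: 3 of unstimulated cells and 3 of cells that had received IL1β (human recombinant) and IFNγ (mouse recombinant), each at 10 ng/ml, for 6 h. MC38CEA is a mouse colon adenocarcinoma line that carries human carcinoembryonic antigen. The control cells, called WT in the labels, had been electroporated with Cas9 mRNA and later with an in vitro transcribed guide RNA against EGFP, so that both groups shared this editing procedure and differed in the cytokines. The other 6 libraries came from cells edited with guides against *Adam17* and treated in the same ways; they entered the fit and a test of whether the response differed. Each group had 3 biological replicates, and the sources used here do not say whether these were separate electroporations or later cultures of one electroporated population. If they were cultures, p-values reflect only culture-to-culture spread. Poly(A)+ RNA was sequenced and the level of each gene is given as CPM (counts per 1000000 of the TMM-scaled library total), which is not divided by transcript length and therefore compares groups for a gene and not genes with each other.

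IL1β binds its receptor IL1R1 with the coreceptor IL1RAP, recruits MYD88 and IRAK kinases, and through them activates NF-κB and the kinases that act on AP-1. IFNγ binds IFNGR1 and IFNGR2, which signal through JAK1 and JAK2 to promoters with gamma-activated sites (GAS). IRF1 is induced early, and factors of the IRF family bind interferon-stimulated response elements (ISRE). Promoters such as that of *Nos2* receive both signals, and the combination of these cytokines is a standard way to induce the gene in tumour cells.

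Total counts were 25443307, 18535667 and 23143055 in the unstimulated replicates 1, 2 and 3 and 18382624, 13156871 and 22366424 in the stimulated ones. The first principal component of the 6 libraries separated the groups and held 57.5% of the variance. The next held 25.8%, with stimulated replicate 2 at one end. Replicate 2 was also the highest of its group, in both groups, for the nuclear RNAs *Malat1* (1279 of 432 to 1279 CPM unstimulated, 1500 of 261 to 1500 CPM stimulated) and *Neat1* (873 and 1194 CPM). Their part in the results was not tested. Of 16 markers of epithelial cells, 13 did not have enough counts to be tested, among them *Epcam*, *Cdh1*, *Krt8*, *Krt18*, *Krt20* and *Cdx2*, each at or below 0.178 CPM in every library. The summed level of all 16 was 0.834 to 1.52 CPM unstimulated and 2.58 to 3.92 CPM stimulated, and *Cldn3* and *Cldn7* had 0 counts. *Vim*, which encodes the mesenchymal filament vimentin, stood at 3383, 2762 and 3254 CPM unstimulated and at 3671, 2420.3 and 3254 CPM stimulated. These 13 epithelial transcripts, of the labelled tissue, were thus close to absent in this line. Of the 3 that could be tested, *Muc1* (log2 3.83 ± 0.71) and *St14* (3.17 ± 0.62) were called higher with cytokines. The third went the other way (log2 -1.10) and was not called. Of 5 tested mesenchymal and endothelial markers *Pdgfra* was called lower (-0.71 ± 0.19, adjusted p = 0.0399, or 0.0681 to 0.168 without unstimulated replicate 1 or 3 or stimulated replicate 2 or 3). Of 12 leukocyte markers 3 could be tested, with a median log2 fold change of -0.04, and their summed level was 4.28 to 7.32 CPM unstimulated and 3.35 to 6.06 CPM stimulated. *Ptprc* had 4 counts and *Cd3e* had 0 counts over the 6 libraries.

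The cytokines changed the level of 999 of 14673 genes tested (6.81%) at an adjusted p under 0.05 in edgeR's quasi-likelihood test. Of these, 844 (5.75% of the genes tested) were higher and 155 (1.06%) were lower. The rises were also larger than the falls. The median called rise was 2.79-fold and the median called fall 1.71-fold, while the median log2 fold change of all genes tested was -0.03. At least 4-fold rises were called for 320 genes and at least 4-fold falls for 12 genes. At least 32-fold rises numbered 76, and no fall reached 16-fold. In 838 of the 844 genes called higher and in 155 of 155 called lower, the 3 stimulated libraries did not overlap with the 3 unstimulated ones. Over all genes tested, groups did not overlap in 1608 genes in the higher direction (11.0%) and in 1221 in the lower direction (8.32%). Without stimulated replicate 2 the test called 886 genes higher and 191 lower, and without unstimulated replicate 2 it called 784 and 100. The count of genes called lower also fell to 95 without unstimulated replicate 3 or stimulated replicate 1, to 99 without stimulated replicate 3, and to 103 without unstimulated replicate 2 of the edited cells.

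Genes called higher held a small part of the RNA before stimulation and, as their selection implies, a larger part after it. Genes called higher took 3.82 to 4.03% of the counts of unstimulated libraries and 10.0 to 11.8% of those of stimulated libraries. The 193 genes that rose at least 8-fold went from 0.150 to 0.161% of the counts to 2.83 to 3.71%. Genes called lower went from 0.891 to 0.983% to 0.506 to 0.534%. Of the genes called higher, 180 had a mean under 1 CPM without cytokines, 31 went from under 1 to over 10 CPM, and 7 from under 1 to over 100 CPM. In bulk RNA a rise in every cell and a rise in a larger share of cells cannot be told apart.

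**Figure D1:**
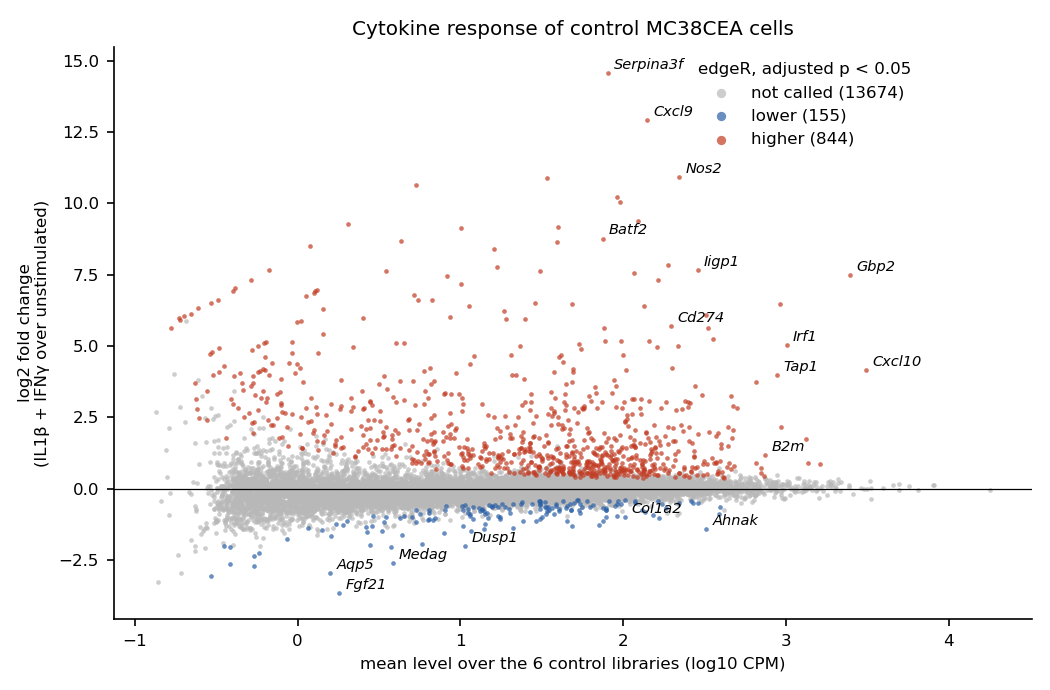
Log2 fold change (stimulated over unstimulated control cells, y axis) of the 14673 genes tested against their mean level over the 6 control libraries (log10 CPM, x axis); red and blue points are the 844 genes called higher and the 155 called lower. Rises extend much farther from 0 than falls, and the fitted fold of a gene with 0 unstimulated counts, such as *Serpina3f*, depends on the model and is no measured ratio.

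The receptors and the first steps of IL1 signalling mostly did not pass the test. Of 19 tested genes of IL1 receptor signalling, 4 rose and none fell, with a median log2 fold change of 0.10. *Il1r1* stood at 8.73, 8.08 and 10.0 CPM unstimulated and 6.12, 11.5 and 10.2 CPM stimulated, and *Il1rap* at 10.9, 11.2 and 13.0 and 12, 14 and 15.9 CPM. Neither was called, at log2 fold changes of 0.05 ± 0.21 and 0.26 ± 0.17 (adjusted p = 0.96 and 0.562). *Myd88*, the adaptor of the receptor, rose from 63.8, 57.2 and 57.3 CPM to 175, 156 and 179 CPM (log2 1.51 ± 0.12, adjusted p = 7.76e-07). *Irak2*, a kinase of the MYD88 complex, rose from 2.28, 2.55 and 3.00 CPM to 40.2, 43.1 and 40.4 CPM, a 15.8-fold difference with close replicates. The other rises were *Il1rl1*, the receptor of IL33 (log2 1.92 ± 0.15), and *Map3k8*, the kinase TPL2 that links NF-κB signalling to ERK (log2 1.71 ± 0.30). *Traf6* was not called (log2 0.14 ± 0.19).

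Transcripts of NF-κB subunits and of their inhibitors rose together. Of 22 tested genes for subunits, inhibitors and kinases of the pathway, 11 rose and none fell, with a median log2 fold change of 0.70. *Nfkbia*, which encodes the inhibitor IκBα and is itself a target of NF-κB, went from 58.2, 48.3 and 59.0 CPM to 212, 206 and 239 CPM (log2 1.99 ± 0.11, adjusted p = 2.77e-08). The largest rise was that of *Nfkbiz*, the nuclear cofactor IκBζ, from 14, 10.7 and 10.9 CPM to 107, 116 and 113 CPM. All stimulated libraries lay close together and far above the unstimulated ones (log2 3.24 ± 0.20, adjusted p = 5.45e-08). *Bcl3*, another nuclear IκB protein, rose by 3.18 ± 0.22 on the log2 scale and *Nfkbie* by 1.76 ± 0.14. Among the subunits, *Nfkb1* (log2 1.09 ± 0.10), *Nfkb2* (0.88 ± 0.11) and *Relb* (1.41 ± 0.11) rose. *Rela* (0.31 ± 0.16, adjusted p = 0.402) and *Rel* (0.74 ± 0.25, adjusted p = 0.124) did not pass the test.

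Negative regulators of inflammatory signalling changed in both directions. In a list of 35 tested feedback genes of NF-κB and AP-1, 10 rose and 3 fell. *Zc3h12a*, an RNase that degrades inflammatory mRNAs, rose from 4.55, 4.74 and 3.52 CPM to 25.6, 24.8 and 25.6 CPM (log2 2.57 ± 0.21). *Zfp36*, which binds AU-rich elements, rose by 2.29 ± 0.15 on the log2 scale, and *Tnfaip3*, the ubiquitin-editing enzyme A20, by 1.24 ± 0.22. *Sod2*, the mitochondrial superoxide dismutase, rose from 75.5, 64.0 and 69.9 CPM to 242, 228 and 268 CPM (log2 1.82 ± 0.11, adjusted p = 7.28e-08). By contrast *Dusp1*, a phosphatase that inactivates p38 and JNK, went from 16.4, 22 and 13.0 CPM to 3.39, 6.14 and 3.4 CPM, a log2 fold change of -2.01 ± 0.30 (adjusted p = 0.000416). The related *Dusp2* also fell (log2 -1.36 ± 0.29), a call that ended without unstimulated replicate 1 (adjusted p = 0.0555). The other gene of the list that fell was *Zfp36l2* (log2 -0.77 ± 0.14); it, *Il34*, *Il16* and *Trim8* below are named because they were the exceptions in their lists, after their values were seen.

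The IFNγ receptor itself was not called, whereas genes downstream of it were. *Ifngr1* stood at 25.4, 24 and 26.4 CPM unstimulated and 23.5, 18.4 and 24.9 CPM stimulated, with a log2 fold change of -0.18 ± 0.13 (adjusted p = 0.645). *Ifngr2* (0.23 ± 0.13) and *Jak1* (0.16 ± 0.12) were not called either. *Jak2* rose from 38.8, 45.9 and 42.2 CPM to 106, 174 and 134 CPM (log2 1.71 ± 0.20). *Stat2* (3.01 ± 0.19) and *Stat3* (2.16 ± 0.14) rose too. Of the inhibitors in the list, *Socs1* rose from 4.51, 4.54 and 5.58 CPM to 60.7, 30.0 and 56.2 CPM (log2 3.33 ± 0.27), *Socs3* by 3.03 ± 0.14 and *Cish* by 3.50 ± 0.35 on the log2 scale, while the others tested were not called. In all, 9 of 30 tested genes of this pathway rose and none fell, with a median of 0.16.

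In a list of IRF genes, BATF genes and genes of IRF2-binding proteins, 6 of 11 tested rose and 2 fell, with a median of 1.31. *Irf1* (chromosome 11) went from 67.2, 58.3 and 52.3 CPM to 1803, 2351 and 1708 CPM, a 33.0-fold rise (log2 5.04 ± 0.18, adjusted p = 2.89e-10). The groups lay far apart, with little spread within either. *Batf2*, an AP-1 family factor that pairs with IRF1, was near the detection limit at 0.266, 0.469 and 0.3 CPM and reached 174, 104 and 169 CPM (log2 8.76 ± 0.31, adjusted p = 2.65e-10). Smaller rises were those of *Irf7* (log2 2.68 ± 0.16), *Irf2* (1.72 ± 0.13), *Irf5* (1.65 ± 0.17) and *Irf9* (1.31 ± 0.11). *Irf8*, a factor of myeloid cells, had 9 unstimulated and 10 stimulated counts and was not tested. The corepressor genes *Irf2bp2* and *Irf2bpl* were called lower (log2 -1.0 ± 0.28 and -0.79 ± 0.20), the former losing its call without any one of the control libraries except stimulated replicate 3 (adjusted p = 0.0512 to 0.211) and the latter without unstimulated replicate 2 or 3 or stimulated replicate 2 or 3 (0.0536 to 0.141).

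Promoters of genes that rose held binding motifs of these factors more often than promoters in general. For the NF-κB consensus and AP-1, so did promoters of genes that fell. RefSeq promoter windows (GRCm38.p6, 250 bases before to 50 after the start) were found for 9157 tested genes, 11708 windows in all, and were searched on both strands. The ISRE core, written GAAANNGAAA, was in 3.19% of all windows, in 12.9% of those of genes called higher, in 24.6% of those of genes that rose at least 4-fold, and in 28.4% at 8-fold or more. In windows of genes called lower it was in 2.94%. GAS, written TTCNNNGAA, was in 6.92% of all windows, 19.1% for rises of at least 8-fold and 3.53% for genes called lower. The stricter form TTCCNGGAA was in 1.27%, 5.67% and 0%. The NF-κB consensus was in 5.23% of all windows, 12.8% for rises of at least 8-fold and 7.06% for genes called lower. The AP-1 site TGANTCA was in 5.17%, 15.6% and 8.24%. In windows of all genes called higher, GAS was in 11.99%, the NF-κB consensus in 9.85% and AP-1 in 8.96%. Without the 8-fold limit AP-1 was thus about as frequent for genes called higher as for genes called lower. Counted by gene, AP-1 was in 10.54% of genes called higher and 11.02% of genes called lower, and the NF-κB consensus in 12.21% and 10.17%. Matches of different motifs rarely overlapped: ISRE core and GAS did so in 13 windows, GAS and the NF-κB consensus in 7, GAS and AP-1 in 2, and ISRE core and NF-κB in 1. Every strict GAS is also a GAS. Several windows may belong to one gene or overlap, a match is not a site of measured binding, and these shares carry no test.

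**Figure D2:**
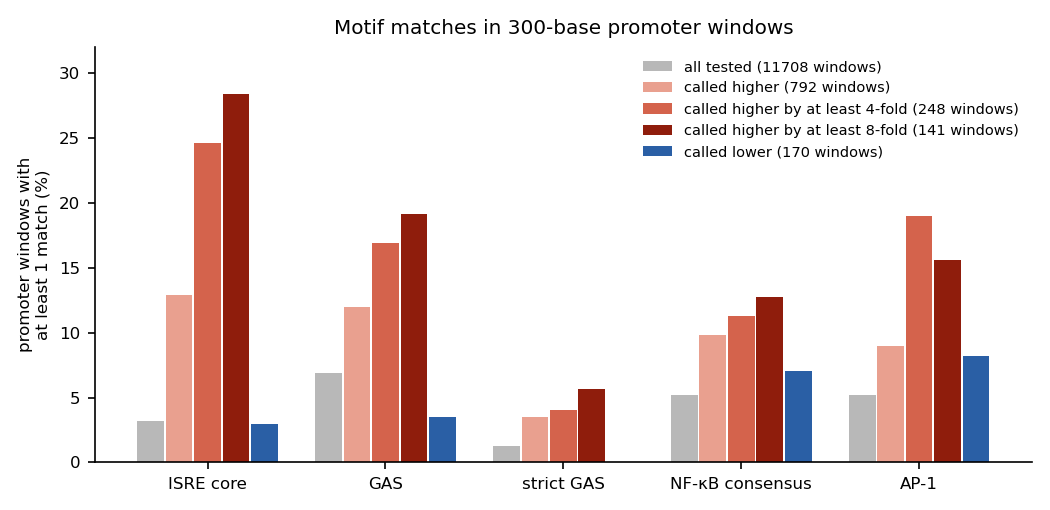
Share of promoter windows (y axis, %) with at least 1 match of each motif (x axis) for all genes tested, for genes called higher, for those called higher by at least 4-fold and 8-fold (each a subset of the one before), and for genes called lower. The ISRE core goes from 3.19% of all windows to 28.4% for rises of at least 8-fold, and genes called lower stay at 2.94%.

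The sequences just before the start of 11 genes show where these motifs lay in genes of different roles. These were the factor *Irf1*, chemokines, *Nfkbia*, *Icam1*, GTPases, and antiviral and MHC genes. All 11 were called higher and hold a match, so the stretches do not show that matches mark genes that rose. Matches also lay in genes not called (NF-κB in *Ifngr2* and *Il1r1*, a GAS in *Polr2b*) and in *Flnc*, called lower (NF-κB). The stretches are from RefSeq (GRCm38.p6) and read 5′ to 3′ along the gene. Motif matches are in capitals, with 5 bases on either side of the outermost matches, or up to the start.
Irf1 (chr11:53769919-53770013, plus strand): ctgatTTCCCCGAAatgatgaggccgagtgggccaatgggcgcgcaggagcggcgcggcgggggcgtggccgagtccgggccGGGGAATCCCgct
Cxcl10 (chr5:92348952-92349107, minus strand): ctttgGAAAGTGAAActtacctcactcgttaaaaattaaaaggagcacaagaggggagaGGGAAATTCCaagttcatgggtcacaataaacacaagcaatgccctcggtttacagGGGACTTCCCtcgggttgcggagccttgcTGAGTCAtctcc
Cxcl1 (chr5:90891169-90891189, plus strand): actccGGGAATTTCCCtggcc
Nfkbia (chr12:55492662-55492681, minus strand): ggcttGGAAATTCCCcgcgc
Icam1 (chr9:21015893-21015911, plus strand): gaggtTTCCCGGAAagtgg
Gbp2 (chr3:142620556-142620618, plus strand): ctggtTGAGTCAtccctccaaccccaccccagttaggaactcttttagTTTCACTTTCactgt
Gbp5 (chr3:142496852-142496895, plus strand): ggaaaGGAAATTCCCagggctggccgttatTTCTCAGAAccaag
Tgtp1 (chr11:48992309-48992339, minus strand): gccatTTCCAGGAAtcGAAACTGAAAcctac
Igtp (chr11:58199506-58199536, plus strand): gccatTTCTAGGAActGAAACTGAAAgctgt
Isg15 (chr4:156200870-156200901, minus strand): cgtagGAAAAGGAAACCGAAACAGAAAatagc
B2m (chr2:122147543-122147575, plus strand): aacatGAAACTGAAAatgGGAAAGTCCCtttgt
In *Irf1* the first capital run is a GAS and the other matches the NF-κB consensus. *Cxcl10* holds, in order, an ISRE core, 2 NF-κB matches and an AP-1 site. *Cxcl1* has 2 overlapping NF-κB matches, *Nfkbia* has 1 and *Icam1* a strict GAS. *Tgtp1* and *Igtp* share one arrangement, a GAS followed after 2 bases by an ISRE core, and *Isg15* has 3 overlapping ISRE cores. *Gbp2* has an AP-1 site and an ISRE core on the opposite strand, *Gbp5* an NF-κB match and a GAS (with another GAS and an ISRE core farther from the start, not printed), and *B2m* an ISRE core and an NF-κB match.

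*Nos2*, the gene that the study followed as its marker of the response, had the largest rise of any gene with more than 10 unstimulated counts. It encodes inducible nitric oxide synthase and lies on chromosome 11 of mm10 (78920787 to 78960254, plus strand). Unstimulated libraries held 0.114, 0.365 and 0.215 CPM, 15 counts in all, and stimulated ones 506, 315 and 504 CPM, 23059 counts, with replicate 2 the lowest. The log2 fold change was 10.93 ± 0.39 (adjusted p = 2.89e-10). Genes that supply the enzyme had smaller fold changes. *Gch1*, which starts the synthesis of the cofactor tetrahydrobiopterin, rose from 3.83, 4.90 and 3.31 CPM to 10.8, 8.72 and 9.75 CPM (log2 1.28 ± 0.19). *Slc7a2*, an arginine transporter, was called at 1.12 ± 0.29 (adjusted p = 0.0286), but not without unstimulated replicate 1 or 3 or stimulated replicate 2 (adjusted p = 0.0914 to 0.142). *Ass1*, which recycles citrulline to arginine, had 0 counts in all 6 libraries (3 counts over the unstimulated group would be 0.0436 CPM). *Ptgs2*, the inducible cyclooxygenase, was already at 303, 365 and 301 CPM and rose to 466, 655 and 525 CPM (log2 0.76 ± 0.15, adjusted p = 0.00362), and *Ptges*, which makes prostaglandin E2, was not called (log2 0.59 ± 0.32) but passed without stimulated replicate 2 (log2 0.90, adjusted p = 0.0452). Of 16 tested genes of this list 4 rose, and the median was 0.04.

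The CXCR3 ligands, chemokines that draw activated T cells and NK cells, rose in 3 of 3 cases. *Cxcl10* was already expressed at 346, 324 and 329.6 CPM and reached 5678, 5667 and 6301 CPM (log2 4.14 ± 0.16, adjusted p = 6.5e-10), the largest absolute gain in CPM of any called gene. *Cxcl9* had 2 counts without cytokines and 13980 with them, at 242, 313 and 280.5 CPM, a ratio of levels of 9504 (95% counting interval 2631 to 78488). *Cxcl11* went from 0.190, 0.313 and 0.0858 CPM to 65.1, 82.4 and 87.5 CPM (log2 8.64 ± 0.41). Among chemokines that act on neutrophils, *Cxcl1* rose from 4.78, 1.3 and 2.79 CPM to 134, 150.5 and 166 CPM (log2 5.63 ± 0.32, adjusted p = 2.33e-08). *Cxcl3* rose to 2.13 to 3.80 CPM (log2 5.44 ± 0.59). *Cxcl5* had 0 unstimulated and 23 stimulated counts, at least 10.4-fold higher against a floor of 3 counts over the group, and its call (adjusted p = 0.0298) ended without any of the unstimulated replicates or stimulated replicate 1 (adjusted p = 0.0693 to 0.115). *Cxcl2* had 0 and 3 counts.

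Of the monocyte chemokines that the study followed, *Ccl2* rose from 10.4, 3.49 and 9.36 CPM to 298, 220.0 and 323 CPM (log2 5.16 ± 0.37, adjusted p = 3.17e-07) and *Ccl7* from 1.21, 0.626 and 0.944 CPM to 14.4, 10.4 and 13.8 CPM (log2 3.76 ± 0.26). Replicate 2 was the lowest of its group for both genes in both conditions. *Ccl5* rose from 71.2, 74.9 and 58.5 CPM to 220.4, 188 and 197 CPM (log2 1.57 ± 0.16) and *Cx3cl1*, a membrane-bound chemokine, by 3.32 ± 0.41 on the log2 scale. *Ccl4* (log2 -0.82 ± 0.46), *Ccl25* and *Ccl28* were not called.

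**Figure D3:**
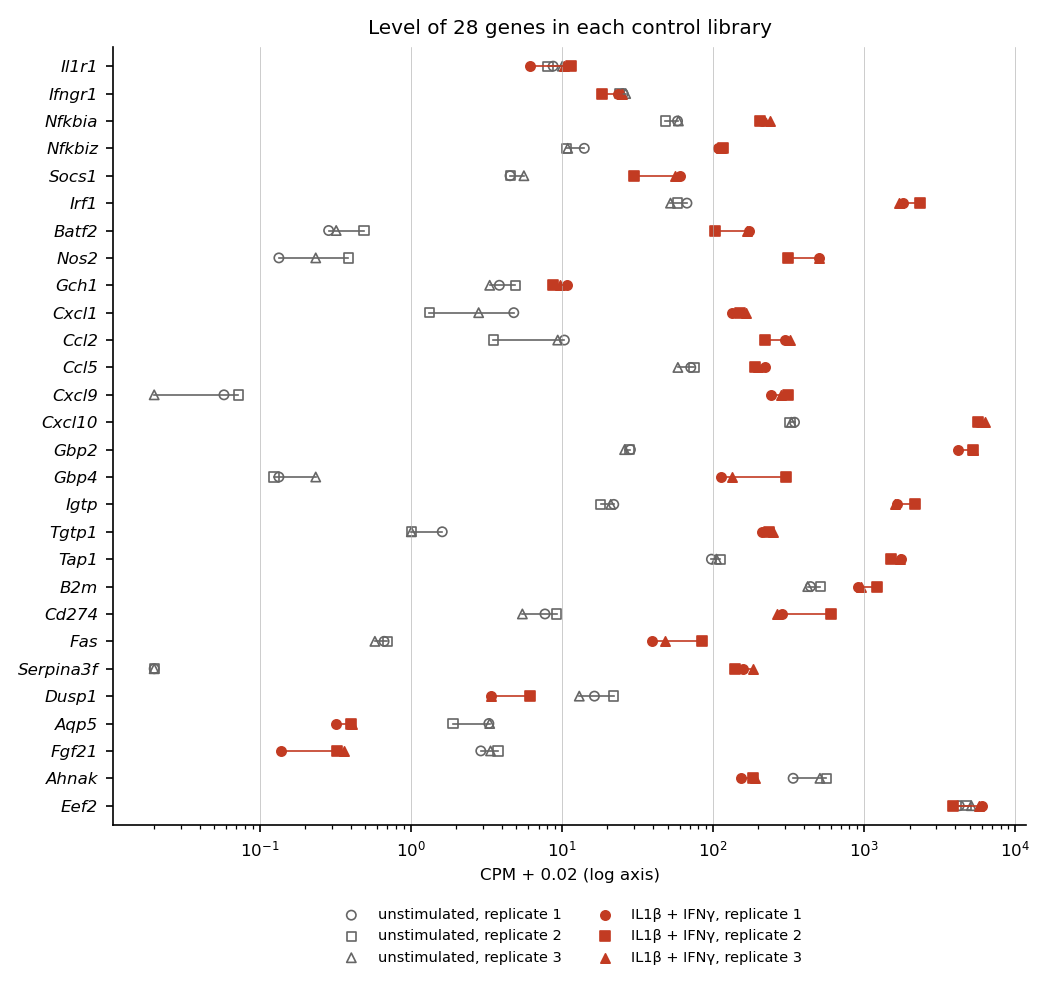
Level of 28 genes in each of the 6 control libraries (x axis, CPM + 0.02, log axis); open grey symbols are unstimulated and filled red symbols stimulated, with one symbol shape per replicate and lines spanning the replicates. *Nos2*, *Cxcl9*, *Gbp4* and *Serpina3f* move from under 1 CPM to over 100 CPM, the receptors *Il1r1* and *Ifngr1* and the reference gene *Eef2* overlap between groups, and *Dusp1*, *Aqp5*, *Fgf21* and *Ahnak* move down.

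Of 22 tested cytokine and colony-stimulating factor genes, 9 rose and 2 fell (*Il34*, log2 -0.63 ± 0.16, and *Il16*, log2 -2.27 ± 0.53), with a median of 0.91. *Csf1*, the macrophage growth factor, rose from 270.3, 206 and 224 CPM to 677, 741 and 536 CPM (log2 1.48 ± 0.17). *Lif*, of the IL6 family, rose from 31.3, 23.1 and 44.8 CPM to 184, 148 and 200.2 CPM (log2 2.42 ± 0.21), and *Il6* itself from 0.266, 0.417 and 0.0429 CPM to 2.26, 2.28 and 2.04 CPM (log2 3.18 ± 0.44, adjusted p = 0.000223). *Il15*, a growth factor of NK cells and memory T cells, rose from 1.37, 1.04 and 0.730 CPM to 13.7, 19.9 and 19.5 CPM (log2 4.07 ± 0.32), and *Tnfsf10*, the death ligand TRAIL, to 7.73, 6.90 and 11.5 CPM (log2 5.12 ± 0.43). *Il18bp*, a decoy for IL18 that IFNγ induces, rose by 2.63 ± 0.22 on the log2 scale. *Tnf* (4 unstimulated and 3 stimulated counts), *Csf2* (4 and 7), *Csf3* (1 and 8) and *Ccl20* (0 and 8) were too low to be tested.

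Most GTPases induced by IFNγ, which act on the vacuoles of intracellular pathogens, rose. All 9 guanylate-binding proteins tested rose, with log2 fold changes from 5.17 to 10.24 and a median of 6.62. Their summed level went from 52.9 to 59.4 CPM without cytokines to 5590.3 to 7802 CPM with them. *Gbp2* went from 28.4, 28.0 and 26.0 CPM to 4212, 5245 and 5231 CPM (log2 7.48 ± 0.21, adjusted p = 7e-11), and made up most of that sum. *Gbp5* rose from 1.52, 2.19 and 1.29 CPM to 339, 416 and 376 CPM (log2 7.83 ± 0.26). *Gbp4* had 10 unstimulated counts and reached 113, 303 and 134 CPM (log2 10.24 ± 0.56), and *Gbp9* went from 1.18, 1.46 and 0.601 CPM to 49.3, 176 and 63.7 CPM (log2 6.49 ± 0.58). For each of *Gbp2* to *Gbp9* the highest stimulated value was in replicate 2.

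Among immunity-related GTPases 10 of 12 tested genes rose, with a median of 5.56. *Igtp* (IRGM3) went from 22, 18 and 21.0 CPM to 1656, 2175 and 1602 CPM (log2 6.47 ± 0.22, adjusted p = 2.51e-10) and *Irgm1*, a regulator of the family, from 89.5, 111 and 75.4 CPM to 1059, 1447 and 1129.6 CPM (log2 3.72 ± 0.20). *Tgtp1* rose from 1.59, 0.991 and 0.987 CPM to 210.2, 235 and 250.3 CPM (log2 7.58 ± 0.21) and had the smallest adjusted p of the named genes (5.63e-11, shared with *Tgtp2*). *Iigp1* reached 461, 652 and 602 CPM (log2 7.67 ± 0.28), *Ifi47* 563, 770.2 and 579 CPM (log2 6.10 ± 0.24) and *Irgm2* 387, 486 and 392 CPM (log2 5.01 ± 0.20). How reads that fit several genes were counted is not given in the sources used here, so members of near-identical families (Gbp, Tgtp, Irgm, Serpina3, Ifit, Trim30, Phf11, Apol, Ifi200 and H2 genes) are uncertain as single genes.

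Genes best known from the response to type I interferons rose as well. Of 47 tested antiviral genes, 45 rose and none fell, with a median of 2.60. *Samhd1*, which depletes nucleotides, went from 91.3, 80.5 and 90.6 CPM to 827, 801 and 882 CPM (log2 3.26 ± 0.12, adjusted p = 4.98e-10). *Cmpk2* rose by 3.81 ± 0.14 on the log2 scale and *Mx1* by 2.95 ± 0.26. *Oas1b*, which the study used to look for an interferon response, rose from 10.7, 8.92 and 9.44 CPM to 34.6, 48.8 and 32.4 CPM (log2 1.99 ± 0.23, adjusted p = 4.22e-05). *Ifit1*, used for the same purpose, rose from 56.4, 49.8 and 63.1 CPM to 478, 587 and 589 CPM (log2 3.29 ± 0.16, adjusted p = 5.14e-09). *Apol6* had 2 unstimulated counts and 74.5, 64.9 and 65.3 CPM with cytokines (ratio 2349, 95% counting interval 649.7 to 19403). Of 10 tested IFIT and IFITM genes 7 rose (median 2.76). *Ifitm3* was called at 0.88 ± 0.24 (adjusted p = 0.0416), but lost the call when any one of the control libraries except stimulated replicate 2 was left out (adjusted p = 0.0604 to 0.17).

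In a list of sensors of foreign nucleic acid 16 of 20 tested genes rose (median 2.17). The list also held sensors of bacterial products (*Tlr2*, *Tlr4*, *Nod1* and *Nod2*) and the signalling genes *Mavs* and *Trim25*. *Zbp1*, a sensor of Z-form nucleic acid, went from 15.8, 10.4 and 13.0 CPM to 646, 707 and 586 CPM (log2 5.62 ± 0.24, adjusted p = 1.66e-09). *Nod1*, a sensor of bacterial peptidoglycan kept in the same list, went from 0.911, 0.886 and 1.33 CPM to 20.7, 17.6 and 27.3 CPM (log2 4.38 ± 0.23), and *Tmem173*, which encodes STING, rose by 2.12 ± 0.13 on the log2 scale. In a list of the ubiquitin-like modifiers ISG15 and FAT10 and their enzymes, 6 of 7 tested genes rose, the exception being *Uba6* (log2 0.03 ± 0.21), which activates FAT10. *Isg15* rose from 171, 163 and 143 CPM to 703, 742 and 711 CPM (log2 2.17 ± 0.14), as did its activating enzyme *Uba7* (log2 4.18 ± 0.34), its conjugating enzyme *Ube2l6* (3.34 ± 0.21) and its protease *Usp18* (2.38 ± 0.15). *Ubd*, the modifier FAT10, had 0 unstimulated and 519 stimulated counts, at least 235-fold higher. Of 18 tested TRIM, PML and SP100 genes 17 rose (median 2.53), among them *Sp140* (log2 3.84 ± 0.18) and *Trim21* (3.36 ± 0.20), the cytosolic antibody receptor. *Trim8* fell (log2 -0.69 ± 0.11).

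Transcripts for the supply of peptides to MHC class I rose, as did those of the class I molecules themselves. *Tap1*, a subunit of the peptide transporter, went from 97.6, 112 and 105 CPM to 1765, 1506 and 1715 CPM (log2 3.99 ± 0.13, adjusted p = 2.14e-10). The immunoproteasome subunits rose too: *Psmb9* from 9.41, 8.71 and 15.1 CPM to 213, 159 and 221 CPM (log2 4.16 ± 0.22), *Psmb10* by 3.60 ± 0.31 and *Psmb8* by 2.80 ± 0.22 on the log2 scale. *B2m*, the shared light chain, rose from 442, 513 and 424 CPM to 910.2, 1218 and 951 CPM (log2 1.16 ± 0.17, adjusted p = 0.000334). The heavy chain genes *H2-K1* and *H2-D1* rose by 0.91 ± 0.16 and 0.88 ± 0.13. Of 21 tested genes of peptide supply and loading 12 rose (median 1.78), and of 16 tested class I genes 13 rose (median 1.26). A test against a 1.5-fold change did not call *H2-K1* or *H2-D1* (adjusted p = 0.186 and 0.113).

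MHC class II remained low at 6 h. *Ciita*, its master regulator, had 2 unstimulated and 108 stimulated counts, a ratio of 73.4 (95% counting interval 19.8 to 614), at 2.91, 1.14 and 2.13 CPM. *Nlrc5*, the related regulator of class I genes, went from 46.1, 76.3 and 30.6 CPM to 326, 660.0 and 302 CPM (log2 3.08 ± 0.38), highest in replicate 2 of both groups. *H2-Aa* reached 1.25, 0.910 and 0.728 CPM (log2 3.61 ± 0.71, adjusted p = 0.00441), and *H2-Ab1* and *H2-Eb1* were not called (adjusted p = 0.0917 and 0.146). The result for *H2-Ab1* depended on the setting. It was called higher with DESeq2 (log2 4.43, adjusted p = 0.0214). In edgeR it passed without a filter on low counts (adjusted p = 0.001135) or without stimulated replicate 2 of the edited cells (0.0467). *Cd74*, the invariant chain, rose by 2.39 ± 0.53 on the log2 scale (adjusted p = 0.0114, or 0.0644 without unstimulated replicate 3).

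Surface proteins and enzymes that restrain or engage T cells rose in 10 of 13 tested cases (median 1.70). *Cd274*, which encodes PD-L1, went from 7.70, 9.23 and 5.45 CPM to 286, 603 and 263 CPM (log2 5.69 ± 0.34, adjusted p = 4.08e-08). Replicate 2 stood well above the other stimulated replicates, and these in turn far above every unstimulated value. *Pdcd1lg2*, which encodes PD-L2, had 1 count over all 6 libraries. *Ido1*, an enzyme that degrades tryptophan, had 2 unstimulated counts and 5.41, 7.51 and 8.05 CPM with cytokines (ratio 242, 95% counting interval 66.5 to 2006). *Wars*, the tryptophanyl-tRNA synthetase, rose from 596, 663 and 590.4 CPM to 2114, 2122 and 1898 CPM (log2 1.73 ± 0.14). The adhesion molecule *Icam1* had 1 unstimulated count and 2.97, 1.97 and 2.96 CPM with cytokines (ratio 186, 95% counting interval 32.9 to 7411), while *Vcam1* was already at 145, 107 and 141 CPM and rose to 394, 349.8 and 448 CPM (log2 1.60 ± 0.15).

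Of 30 tested genes of cell death pathways 17 rose and none fell (median 0.82). *Fas*, the death receptor, went from 0.645, 0.678 and 0.558 CPM to 39.2, 84.0 and 48.1 CPM (log2 6.49 ± 0.35, adjusted p = 1.64e-08), again highest in replicate 2. *Casp4*, an inflammatory caspase, went from 12.9, 14.3 and 15.7 CPM to 67.5, 122 and 106 CPM (log2 2.79 ± 0.27). The related *Casp1* rose by 2.78 ± 0.33 and the pore-forming *Gsdmd* by 1.26 ± 0.13 on the log2 scale. *Mlkl*, the executor of necroptosis, rose from 106, 93.8 and 88.1 CPM to 296, 320.3 and 305 CPM (log2 1.68 ± 0.11), whereas its kinase *Ripk3* stood at 1.52, 1.20 and 1.12 and 1.43, 0.910 and 1.16 CPM (log2 -0.13 ± 0.32, adjusted p = 0.934). *Casp8* was not called (log2 0.23 ± 0.12).

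Of 13 tested complement genes 8 rose (median 2.70), and of 17 tested acute phase and iron genes 7 rose (median 1.02). *C1s1*, a protease of the classical pathway, went from 3.60, 3.13 and 2.49 CPM to 69.3, 116 and 55.5 CPM (log2 4.70 ± 0.46), *C4b* from 0.152, 0.104 and 0.129 CPM to 21.7, 26.8 and 11.8 CPM (log2 7.19 ± 0.64) and *C3* from 0.379, 0.678 and 0.343 CPM to 6.89, 5.31 and 5.34 CPM (log2 3.66 ± 0.50). *Serping1*, which encodes the C1 inhibitor, had 0 and 20 counts, at least 9.06-fold higher. With the genes at 0 unstimulated counts set to their lower bound, the medians of both lists were unchanged. *Serpina3f*, a protease inhibitor of the acute phase family, had 0 counts in the 3 unstimulated libraries and 157, 139 and 185 CPM in the stimulated ones, at least 3764-fold higher. *Serpina3g* rose from 0.0759, 0.156 and 0.172 CPM to 76.1, 66.7 and 94.4 CPM (log2 9.17 ± 0.32). *Lcn2*, which binds bacterial siderophores, remained low (log2 2.97 ± 0.49, 3.33, 3.26 and 1.89 CPM), *Saa3* was not called (log2 1.02 ± 0.41), and *Hp* had 2 counts in all. *Irg1*, which makes itaconate, had 0 and 124 counts, at least 56.2-fold higher, and *Mpeg1*, a perforin-like protein, went from 0, 0.156 and 0.129 CPM to 34.4, 27.8 and 33.5 CPM (log2 8.40 ± 0.38).

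Some genes that rose stood next to each other on the mm10 genome. Runs of at least 4 neighbouring tested genes, all called higher, were found at 18 places. Several are of near-identical families, whose members are uncertain as single genes, and no expected number of runs was computed. On chromosome 7, 10 Trim genes from *Trim6* to *Trim30d* (104218793 to 104507849) rose with a median log2 fold change of 2.80. The Ifi200 genes on chromosome 1 (173566283 to 174031810) gave a run of 9 with a median of 4.08. Another run of 9 on that chromosome (85027954 to 85327306, median 2.78) held only genes with Gm or Rik names. On chromosome 19, 9 genes (34192229 to 34650009), from *Stambpl1* through *Fas* to *Ifit1*, gave 3.43. The Gbp genes lay in 2 runs, 5 genes on chromosome 5 (105014150 to 105346472, median 6.62) and 4 on chromosome 3 (142493978 to 142638008, median 6.37). Within the MHC on chromosome 17, *Psmb9*, *Tap1*, *Psmb8* and *Tap2* (34181987 to 34216321) gave a median of 3.42. *Jak2* and *Cd274* are in a run of 4 on chromosome 19 (29251828 to 29388095). Of 675 tested genes on the X chromosome 7 were called higher (1.04%, against 5.75% of all genes tested).

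The genes that fell were spread over many functions, and few belonged to the lists. *Fgf21*, a hormone of the FGF family, had the largest fall, from 2.88, 3.75 and 3.35 CPM to 0.119, 0.303 and 0.340 CPM (12.7-fold lower, log2 -3.67 ± 0.56, adjusted p = 0.000497). *Aqp5*, a water channel, went from 3.26, 1.88 and 3.31 CPM to 0.297, 0.379 and 0.388 CPM (log2 -2.97 ± 0.37, adjusted p = 7.6e-05). Further falls were those of *Medag* (log2 -2.61 ± 0.24), the homeobox gene *Dlx3* (-2.06 ± 0.37), *Bhlhe41*, a repressor of the circadian clock (-1.63 ± 0.24), and *Rgs2*, a regulator of G protein signalling (-1.54 ± 0.20). *Asic1*, an acid-sensing ion channel (-1.42 ± 0.23), and *Rapgef3*, a cAMP-regulated exchange factor (-1.51 ± 0.30), fell too.

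Among the 10 largest losses in CPM, *Ahnak*, a large scaffold protein of the cell membrane, fell from 339, 562 and 509.9 CPM to 154, 183 and 189.5 CPM (log2 -1.42 ± 0.17, adjusted p = 4.91e-05). *Flnc*, an actin-binding filamin, went from 449.9, 658 and 408 CPM to 289, 293 and 228 CPM (log2 -0.90 ± 0.20, adjusted p = 0.0101, or 0.0544 and 0.0595 without unstimulated replicate 2 or stimulated replicate 3). *Cav1*, the coat protein of caveolae, fell from 215, 227 and 231 CPM to 129, 152 and 138 CPM (log2 -0.68 ± 0.10, adjusted p = 0.00045) and *Angptl2*, a secreted glycoprotein, from 195, 194 and 211 CPM to 112, 90.3 and 112 CPM (log2 -0.93 ± 0.11). Outside these 10, *Col1a2*, a chain of type I collagen, fell from 142, 142 and 128 CPM to 70.2, 67.1 and 66.6 CPM (log2 -1.01 ± 0.15, adjusted p = 0.000332). In all, 1 of 23 tested matrix genes fell and 3 rose.

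*Adam17* and *Adam10*, the sheddases that the study followed, were not called. *Adam17* stood at 77.0, 91.8 and 94.4 CPM unstimulated and 93.8, 111 and 110.3 CPM stimulated (log2 0.26 ± 0.12, adjusted p = 0.317) and *Adam10* at 27.7, 32.7 and 29.1 and 25.0, 31.8 and 26.2 CPM (log2 -0.11 ± 0.15, adjusted p = 0.854). In the wider list of matrix proteases and inhibitors 5 of 20 tested genes rose and 2 fell. Among the rises, *Adam9* and *Adamts4* lost their calls in the fit to the 6 control libraries alone (adjusted p = 0.0922 and 0.0939). Leaving out single control libraries could end these calls too (adjusted p up to 0.146). *Adamts1* lost its call without unstimulated replicate 3 (adjusted p = 0.0554). *Adam8* rose from 19.4, 9.44 and 21.9 CPM to 58.2, 37.6 and 61.5 CPM (log2 1.63 ± 0.28, adjusted p = 0.00147). *Mmp11* (log2 -0.76 ± 0.15) and *Plat*, tissue plasminogen activator (log2 -0.96 ± 0.21), fell. Of 8 tested EGF ligands and receptors, some of which ADAM17 sheds, only *Areg* was called, lower at a log2 fold change of -0.90 ± 0.24 (adjusted p = 0.0357), and that call ended without unstimulated replicate 1 or 3 or stimulated replicate 1 or 2 (adjusted p = 0.0933 to 0.165).

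Lists of housekeeping, growth and stress genes had medians near 0, with shares of calls to be read against the 5.75% higher and 1.06% lower of all genes tested. Cell cycle genes gave 1 call of 42, *Ccne1*, which was higher (log2 1.14 ± 0.19, adjusted p = 0.00135), with a median of -0.05. The 35 ribosomal protein genes had log2 fold changes from -0.34 to 0.33, the 22 genes of oxidative phosphorylation from -0.26 to 0.25 and the 10 reference genes from -0.32 to 0.15. Of 26 stress response genes 2 were called higher, of which *Slc7a11* (log2 0.57 ± 0.14) lost its call without unstimulated replicate 1 or 2 or stimulated replicate 3 (adjusted p = 0.0807 to 0.138). Of 18 tested p53 targets *Eda2r* was called higher (log2 0.73 ± 0.20) and *Bbc3* lower (-0.54 ± 0.14), and of 24 cholesterol synthesis genes *Insig1* was called lower (-0.54 ± 0.15). These single calls were not stable. That of *Eda2r* ended without unstimulated replicate 1 or 3 or stimulated replicate 2 (adjusted p = 0.125 to 0.187), that of *Bbc3* without unstimulated replicate 2 or stimulated replicate 2 or 3 (0.0887 to 0.153), that of *Insig1* without unstimulated replicate 2 or 3 or stimulated replicate 1 or 2 (0.0901 to 0.222), and all 3 in the fit to the 6 control libraries alone (0.132 to 0.171). Immediate early and ERK targets gave 4 rises of 27, of which *Junb*, an AP-1 subunit, went from 70.8, 70.3 and 72.6 CPM to 245, 188 and 223 CPM (log2 1.62 ± 0.12). Of 22 tested glycolysis and hypoxia genes 2 rose, with a median of 0.07 and a range of -0.70 to 8.51 on the log2 scale. In this list *Hk2*, a hexokinase, rose from 48.6, 68.3 and 67.4 CPM to 130.1, 136 and 145 CPM (log2 1.16 ± 0.13, adjusted p = 2.69e-05). The reference genes *Eef2* (log2 0.15 ± 0.18) and *Polr2b* (log2 0.08 ± 0.14) that the study used were not called.

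**Figure D4:**
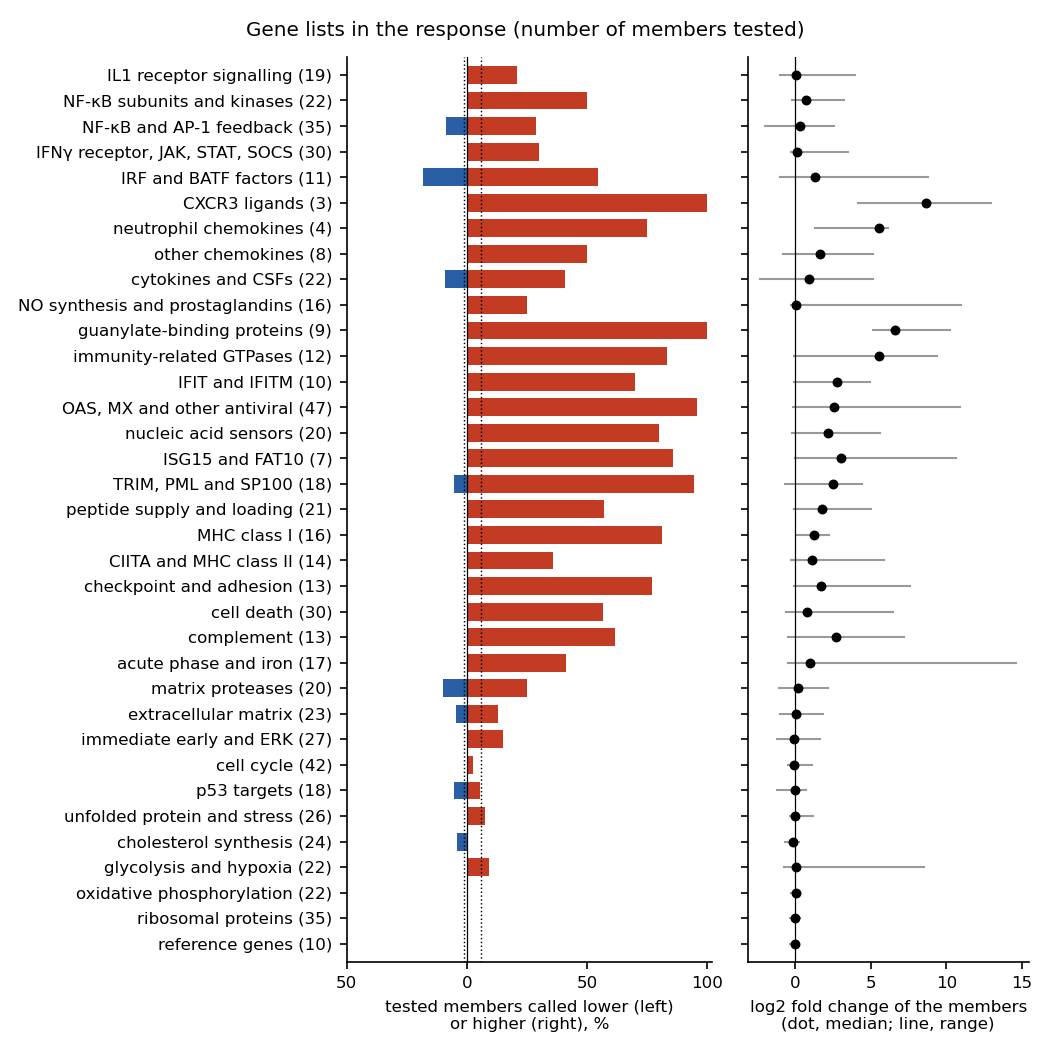
For each gene list (rows, with the number of members tested) the left panel gives the share of members called higher (red, right of 0) or lower (blue, left of 0) in %, with dotted lines at the 5.75% and 1.06% of all genes tested, and the right panel gives the median (dot) and range (line) of the log2 fold changes. The guanylate-binding proteins and the CXCR3 ligands have all members called higher, whereas cell cycle, ribosomal and oxidative phosphorylation lists have medians from -0.05 to 0.07.

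Stimulated replicates did not rank alike in all genes. Of the 844 genes called higher, the highest stimulated level was in replicate 2 for 388, in replicate 3 for 268 and in replicate 1 for 188. Replicate 2 also held the highest value most often among all genes tested (5869 of 14673) and the lowest most often (6541). *Gbp4*, *Gbp9*, *Cd274*, *Nlrc5*, *Fas* and *Casp4* were highest in replicate 2, whereas *Nos2*, *Socs1*, *Batf2*, *Ccl2* and *Tapbp* were lowest there. Taken by replicate number, the median log2 fold changes of the genes called higher were 1.45, 1.44 and 1.49 in numbers 1, 2 and 3, and those of the genes called lower were -0.73, -0.90 and -0.78. In 843 of 844 genes called higher and in 155 of 155 called lower, all 3 numbers moved in the same direction. Such agreement is largely built in, because the genes were called from the same libraries. Same-numbered libraries deviated together, and a fit with the replicate number as a block called 962 genes higher and 253 lower, of which 837 and 154 were also called without the block.

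Whether this response belongs to control cells alone was asked with the cells edited against *Adam17*. The test of the difference between the responses called 0 of 14673 genes (0%) by edgeR, with 222 at an unadjusted p under 0.05 (733.65 would be 5% of the tests) and a smallest adjusted p of 0.999989. DESeq2 called 1 gene, edgeR without a filter on low counts 18, and the other settings tried 0. Fewer p-values lay under 0.05 than 5% of the tests, so this test was conservative. With 3 libraries a group as well, 0 calls do not show that the responses were equal. In the edited cells *Adam17* transcripts were at a mean of 52.2 CPM unstimulated and 59.8 CPM stimulated, against 87.7 and 105 CPM in control cells. All 844 genes called higher in control cells had a positive log2 fold change in the other cells, and 153 of 155 genes called lower had a negative one, the exceptions being *Psg17* and *Snora21*, named after their values were seen. *Nos2* had a difference of responses (edited minus control) of 1.09 ± 0.78 on the log2 scale, *Gbp2* of -0.75 ± 0.23 and *Irf1* of -0.70 ± 0.22, none past the test.

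**Figure D5:**
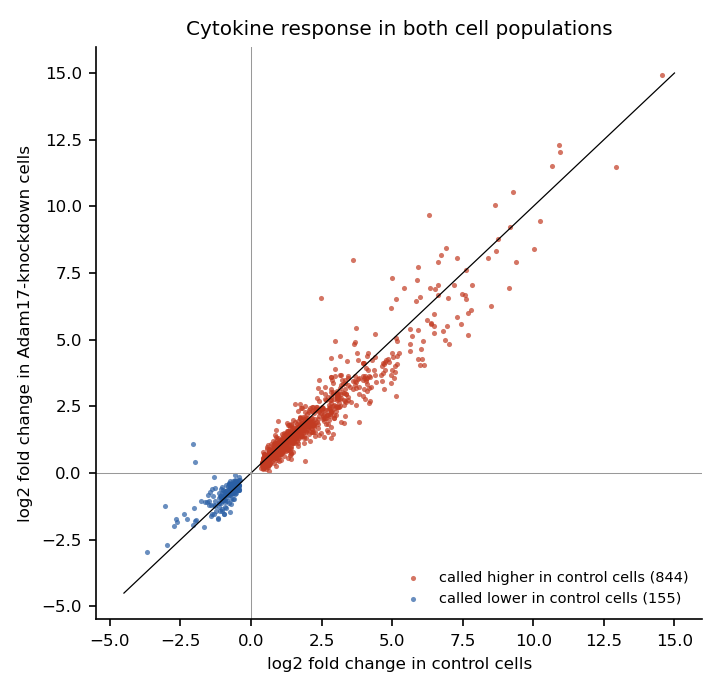
Log2 fold change of the 999 genes called in control cells, in control cells (x axis) and in cells edited against *Adam17* (y axis), from one fit with separate libraries for each kind of cell; the diagonal marks equal values. The points follow the diagonal, with 844 of 844 red points above 0 and 153 of 155 blue points below 0 on the y axis.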

How the data were processed

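Poly(A)+ RNA of MC38CEA cells was sequenced in 12 libraries, and the deposited table holds raw counts per gene that the authors made from reads aligned to mm10, as their processing notes give the build. The aligner, the use of strand and the treatment of reads that fit several genes are not given in the sources used here. The authors' own comparison columns (fold changes and p-values) were not used. After 2 lines named like dates (0.00808% of counts) were left out, 43269 genes of the table remained.

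Groups came from the labels. Counts of all 12 libraries (4 groups of 3, 8 residual degrees of freedom) were fitted with edgeR 4.0.16 (R 4.3.3): TMM scaling, filterByExpr, quasi-likelihood test, Benjamini-Hochberg adjustment over 14673 genes, threshold 0.05. The response of control cells was one contrast and the difference of responses another. A log2 fold change is given ± its standard error. CPM are counts per 1000000 of the TMM-scaled library total. A gene at 0 counts was compared with a floor of 3 counts over the group, and 95% intervals are for counting error only. The script was tested on simulated data.

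Same-numbered control libraries deviated together from their group means (r = 0.133, 0.443 and 0.487, each the best match of its number), a pairing seen in the data and not stated in the labels. Alternatives were a replicate block, the 6 control libraries alone, DESeq2 1.42.0, voom in limma 3.58.1, RLE scaling, other filters, a test against a fold of 1.5, and each library left out. The members and the 41 gene lists were chosen with earlier results of these data known. Genes named were core list members, the 8 of each list with the smallest adjusted p, the 20 largest called rises and falls (mean of at least 20 counts, no overlap, no predicted genes), the 10 largest gains and losses in CPM, and genes the study followed by RT-qPCR. Promoter windows are from RefSeq. One gene of the lists is counted there but not reported by itself.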

Additional observations from a re-analysis of the deposited data

How the results depend on the processing

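In every setting tried, no gene called in the main test changed direction. Genes called higher numbered 844 and moved past 1.5 times only in the test against a fold of 1.5 (532, with 27 lower and 559 in all). Genes called lower (155) were less stable: 253 with the replicate block, 237 without a filter on low counts and 72 with the 6 control libraries alone, or 224 when these were given the block, an alternative added after seeing the data. With DESeq2 991 were higher and 224 lower. Leaving out 1 library gave 702 to 886 higher, 95 to 191 lower and 806 to 1077 in all; the lower count moved past 1.5 times without unstimulated replicate 2 (100) or 3 (95), stimulated replicate 1 (95) or 3 (99), or unstimulated replicate 2 of the edited cells (103). Whichever library was left out, 650 genes were called higher and 53 lower. The cause of these shifts was not tested. The block called 962 higher, and of the named genes *Peli2*, *Ccl9* and *Slc39a14* gained a call with it (adjusted p = 0.0294, 0.0374 and 0.038 in edgeR); it changed no other named call. The difference of responses was called for 0 genes, or 1 with DESeq2 and 18 without the filter. Totals of 13156871 to 25443307 counts limit genes with few counts, and 3 libraries a group limit small changes.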
